A study of Mus musculus with 10 samples.

Results

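The endothelin and angiotensin genes measured here are 9 of the 41091 gene identifiers in the count files. They are the peptide genes Edn1, Edn2 and Edn3, the receptor genes Ednra and Ednrb, the converting enzyme gene Ece1, the precursor gene Agt, the converting enzyme gene Ace and the receptor gene Agtr1a. They were matched by Ensembl identifier to GENCODE symbols, and all 9 passed the filter on low counts. The set was chosen by measured values of these libraries, the higher Edn2 and lower Agt counts per 1000000 (CPM) in cultures with a hairpin against Cbx8. The values of these genes in that comparison are therefore a description, without a test.

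The libraries hold total RNA of adherent cultures from the olfactory epithelium of adult C57BL6 mice. All cultures, controls included, came from tissue taken 9 days after methimazole, a drug that destroys this epithelium so that it regrows from basal cells. All were dissociated with enzymes, plated on gelatin, fed a neural stem cell medium containing EGF, FGF2 and heparin, and transduced with a lentivirus. The lentivirus carried a scrambled, non-targeting short hairpin (shCTR, replicates 1, 2, 5 and 6), a hairpin against Cbx7 (shCBX7, replicates 1, 2 and 5) or a hairpin against Cbx8 (shCBX8, replicates 1, 2 and 6). CBX7 and CBX8 are subunits of Polycomb repressive complex 1, which keeps developmental genes repressed, and the series asks what their depletion does to expression. Whether replicates were separate animals or separate cultures is not in the labels. Each p-value therefore reflects only the spread between these libraries, which may be technical.

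Endothelins are small peptides first known as constrictors of blood vessels. Their precursors are cut by endothelin converting enzyme, encoded by Ece1, and the mature peptides act through the G protein-coupled receptors EDNRA and EDNRB. Angiotensin follows the same logic. Angiotensinogen, encoded by Agt, is cut by renin and then by angiotensin converting enzyme, encoded by Ace, to a peptide that acts through the AT1 receptor, encoded in mice by Agtr1a and its close paralog Agtr1b. Both peptides raise intracellular calcium through Gq, and angiotensin also leads to aldosterone and sodium uptake through the epithelial sodium channel. Endothelin 1 and its receptors have been described in the olfactory mucosa.

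Several properties of the libraries bear on these genes. Counts assigned to genes on the transcribed strand ran from 22763014 to 50463172 per library. Unmapped reads made up 9.83 to 21.7% of the reads in shCTR and 5.03 to 7.81% in the shCBX7 and shCBX8 libraries, and the repeat-derived model Gm10800 took 19970 to 109778 CPM in shCTR, most in shCTR 1 and 2, against 7840 to 13862 CPM in shCBX7 and shCBX8. Cbx8 averaged 12.3 ± 2.55 CPM (SD, n = 4) in shCTR and 4.95 ± 0.22 CPM (n = 3) in shCBX8 (log2 difference -1.31, SE 0.22, edgeR adjusted p = 0.00416). For Cbx7 in shCBX7 the log2 difference was -0.67 (SE 0.48, edgeR adjusted p = 0.929), so its level does not check that label. The sum of 8 fibroblast markers ran from 5530 to 28057 CPM in shCTR, from 5223 to 17658 CPM in shCBX7, but was 237, 2938 and 161 CPM in shCBX8 1, 2 and 6. Horizontal basal cell markers summed to 350 to 1619 CPM in shCTR and 2761 to 6207 CPM in shCBX8. Of these 7 markers 2 passed the test as higher and 0 as lower. By log2 fold change 6 were higher and 1, Icam1, was lower (-0.82). Krt17 alone averaged 3347 CPM in shCBX8, while Krt5 overlapped between the groups. A defining marker of the labelled tissue was near 0: Omp, the marker of mature olfactory neurons, averaged 0.51 CPM in shCTR.

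The windows just before the transcription starts are shown for the 3 genes with the largest fold changes between shCBX8 and shCTR, to let a reader compare the start regions of a pair of genes that were higher and of 1 that was lower in shCBX8. Each runs from 250 bases before to 30 bases after the RefSeq start (GRCm38.p6), 5′ to 3′ on the gene's own strand, and capitals mark matches to the searched motifs. Edn1 is at chr13:42301226-42301505 on the plus strand, Edn2 at chr4:120160956-120161235 on the plus strand and Agt at chr8:124569677-124569956 on the minus strand.
Edn1: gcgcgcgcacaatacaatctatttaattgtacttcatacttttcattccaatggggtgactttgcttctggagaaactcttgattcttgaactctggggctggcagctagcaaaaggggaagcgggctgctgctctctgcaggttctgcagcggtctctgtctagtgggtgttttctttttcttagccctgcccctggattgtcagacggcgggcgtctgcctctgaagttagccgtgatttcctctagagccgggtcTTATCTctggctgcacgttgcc
Edn2: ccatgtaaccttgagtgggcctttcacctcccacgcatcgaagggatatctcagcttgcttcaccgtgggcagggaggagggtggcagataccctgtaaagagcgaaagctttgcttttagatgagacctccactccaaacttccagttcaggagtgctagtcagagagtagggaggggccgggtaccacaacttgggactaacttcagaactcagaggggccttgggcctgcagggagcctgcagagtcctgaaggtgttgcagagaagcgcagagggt
Agt: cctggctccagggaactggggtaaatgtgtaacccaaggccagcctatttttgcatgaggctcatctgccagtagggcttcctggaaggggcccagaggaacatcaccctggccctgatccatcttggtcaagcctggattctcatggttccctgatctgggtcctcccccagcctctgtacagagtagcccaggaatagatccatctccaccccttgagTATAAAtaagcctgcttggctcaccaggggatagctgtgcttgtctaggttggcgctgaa

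The searched motifs were TATAAA for the TATA box, TGANTCA for AP-1, TTNNGCAA for C/EBP and AGATAA for GATA factors, each on both strands. No match overlapped another. The Agt window held TATAAA on its own strand, its first base 30 before the start. The Edn1 window held AGATAA on the opposite strand from position 9, and the Edn2 window held no match. The first Ace window held TATAAA on the opposite strand from position -31. Of 32851 RefSeq windows of this length, 13.1% held TATAAA, 7.46% TGANTCA, 10.4% TTNNGCAA and 10.7% AGATAA. The CG content set the windows further apart. Agt held 1 CG dinucleotide, and 93.7% of all windows held as many or more. Edn2 held 6, the median of all windows, and Edn1 held 11. The first Ace window held 25 and the first Ece1 window 26, and only 15.4% and 13.8% of windows reached those counts. Other starts of the same genes held fewer: the second Ace window 2, and the other Ece1 windows 25, 18 and 5. A window was found for 8 of the 9 genes, all but Agtr1a. A match describes the letters and is not a binding site.

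The peptide genes were the part of the endothelin system with the highest values in shCBX8 relative to control. Edn2 (ENSMUSG00000028635, chromosome 4, 120161206 to 120167360, GRCm38) measured 0.28, 0.050, 0.53 and 0.23 CPM in shCTR 1, 2, 5 and 6. It measured 18.3, 7.73 and 33.3 CPM in shCBX8 1, 2 and 6, from 875, 257 and 1550 counts. All 3 shCBX8 libraries lay above all 4 controls, and shCBX8 2, the library with the most fibroblast marker RNA of its group, was the lowest of the 3. The fitted log2 fold change was 6.13 (SE 1.36), and it stayed between 5.53 and 7.33 over 18 other settings. In bulk RNA a change in the number of cells that express a gene and a change in RNA per cell cannot be told apart, here and in all comparisons that follow. Endothelin 2 is best known from the gut epithelium and the ovary, and it binds both endothelin receptors.

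Edn1 (ENSMUSG00000021367, chromosome 13, 42301476 to 42307990), which encodes the main vascular endothelin, was also higher in shCBX8 than in shCTR, at a smaller span. It measured 0.91, 0.25, 1.74 and 3.08 CPM in shCTR 1, 2, 5 and 6, whereas shCBX8 1, 2 and 6 had 11.4, 5.35 and 13.1 CPM. The groups did not overlap, and shCBX8 2 was again the lowest of its group. On the log2 scale the difference was 2.71 (SE 0.73), or 2.02 without shCTR 1 and 2. Per length of transcript the balance between both peptide genes turned over. The ratio of Edn2 to Edn1 in RPKM (CPM per kilobase of exon) was 0.11 to 0.45 in the 4 shCTR libraries and 2.11 to 3.73 in the 3 shCBX8 libraries. The summed horizontal basal markers were higher in the same libraries. Smooth muscle and pericyte markers summed to 780 to 1991 CPM in shCTR and 1892 to 5587 CPM in shCBX8, of which Rgs5 alone averaged 576 and 3293 CPM. Of these 9 markers 1 passed as higher and 1 as lower, with a median log2 fold change of 0.11. Markers of endothelium, the classical source of Edn1, summed to 11.9 to 49.3 CPM in shCTR and 26.1 to 28.0 CPM in shCBX8. These sums overlapped, and Cdh5 alone averaged 14.1 CPM in shCTR and 8.22 CPM in shCBX8. Of the 8 endothelium markers tested 2 passed as higher and 0 as lower, with a median log2 fold change of 0.66. The part of these cell types in the endothelin values was not tested.

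Edn3 (ENSMUSG00000027524, chromosome 2, 174760619 to 174784042), the ligand known for guiding neural crest cells through EDNRB, had the lowest mean RPKM of the 9 genes in control. It had 14, 10, 6 and 2 counts in shCTR 1, 2, 5 and 6, 5, 1 and 5 counts in shCBX7, and 28, 17 and 34 counts in shCBX8. In CPM these were 0.55, 0.50, 0.21 and 0.058 in shCTR, 0.11, 0.030 and 0.12 in shCBX7, and 0.59, 0.51 and 0.73 in shCBX8. The shCBX8 libraries overlapped shCTR but not shCBX7. Between shCBX8 and shCTR the log2 fold change was 0.92 (SE 0.62), 2.173 without shCTR 1 and 2 and 0.43 with unstranded counts. Reads on the opposite strand of Edn3 numbered 6, 7, 4 and 0 in the shCTR libraries and 0, 2 and 1 in shCBX8. Opposite-strand reads made up 14.7% of the stranded reads of Edn3 over all libraries, against 0.072% for Edn2. The control level of Edn3 thus came with opposite-strand reads in the libraries with the most Gm10800, and the part of that background was not tested.

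**Figure D1:**
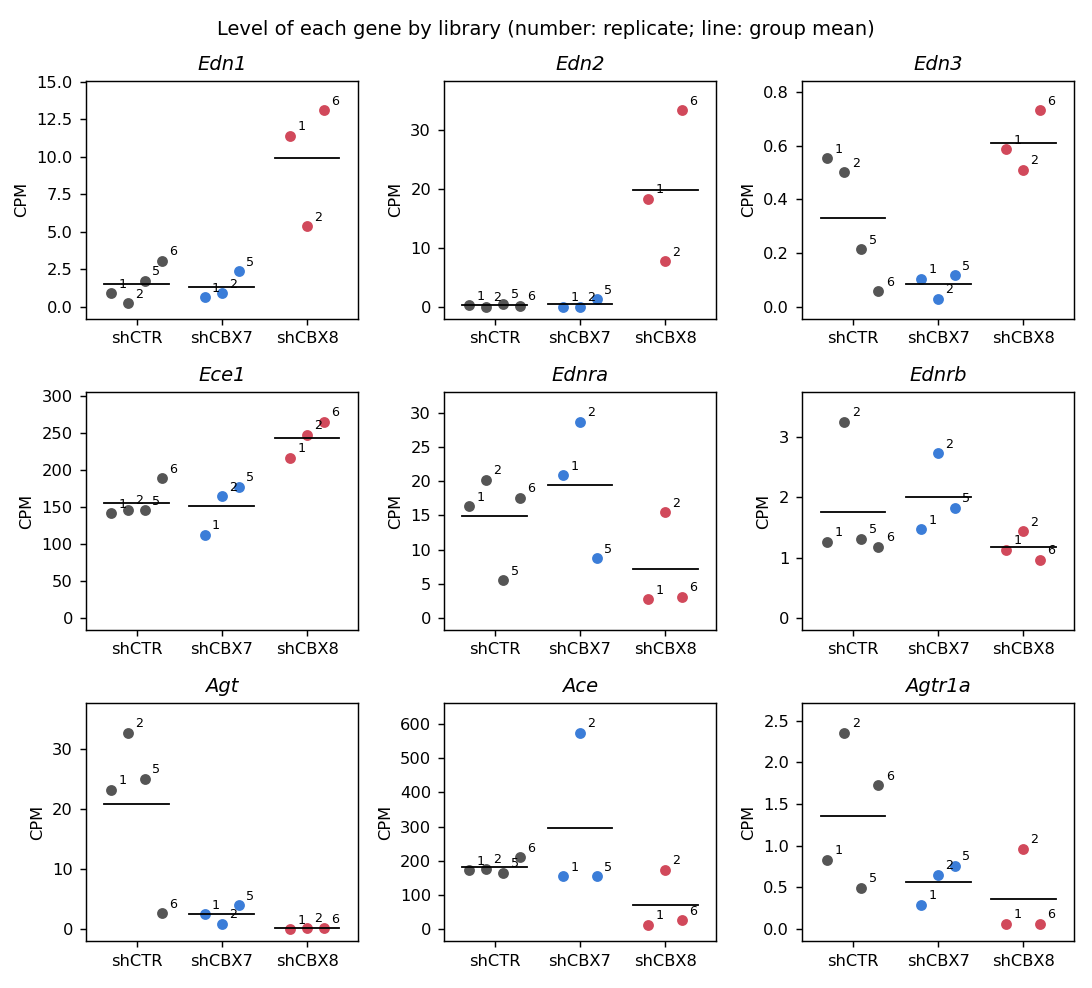
CPM of each gene in each library, on a linear axis. Points are libraries marked with their replicate number, and lines are group means. Edn1, Edn2 and Ece1 are higher in all 3 shCBX8 libraries than in all 4 shCTR libraries, Agt is lower, and Ednra, Ace and Agtr1a split the shCBX8 libraries, with replicate 2 above replicates 1 and 6.

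Ece1 (ENSMUSG00000057530, chromosome 4, 137862237 to 137965229), which releases mature endothelins from their precursors, was abundant everywhere. It measured 142, 146, 146 and 188 CPM in shCTR 1, 2, 5 and 6, and 113, 165 and 177 CPM in the shCBX7 libraries. In shCBX8 it measured 216, 247 and 265 CPM. The 3 shCBX8 libraries lay above all other libraries. Against shCTR the log2 fold change was 0.64 (SE 0.18), between 0.52 and 0.83 over 18 other settings. Unlike the peptide genes, Ece1 was not lowest in shCBX8 2 within its group.

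The receptor genes did not share the direction of their ligands. Ednra (ENSMUSG00000031616, chromosome 8, 77663031 to 77724464, minus strand), the receptor of smooth muscle and mesenchyme, measured 16.4, 20.2, 5.52 and 17.6 CPM in the shCTR libraries 1, 2, 5 and 6. It measured 20.9, 28.7 and 8.73 CPM in shCBX7 1, 2 and 5. It measured 2.72, 15.5 and 3.14 CPM in shCBX8 1, 2 and 6. The shCBX8 group thus held 2 levels: replicates 1 and 6 lay below all other libraries, and replicate 2 lay inside the control range. Replicate 2 was also the highest library of Ednra in shCTR and in shCBX7, and shCBX8 2 lay below shCTR 2. The log2 fold change of -1.07 (SE 0.70) became -2.35 without shCBX8 2. Ednrb (ENSMUSG00000022122, chromosome 14, 103814625 to 103844402, minus strand), the receptor of neural crest derivatives, glia and endothelium, measured 1.27, 3.26, 1.32 and 1.18 CPM in shCTR, 1.47, 2.73 and 1.83 CPM in shCBX7, and 1.13, 1.44 and 0.97 CPM in shCBX8. It overlapped between shCBX8 and shCTR, with a log2 fold change of -0.56 (SE 0.42). In RPKM, Ednra exceeded Ednrb in every library, by 3.26 to 11.6 times in shCTR and by 1.88, 8.37 and 2.53 times in shCBX8 1, 2 and 6.

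Agt had the largest difference of the angiotensin genes. Agt (ENSMUSG00000031980, chromosome 8, 124556534 to 124569706, minus strand) measured 23.2, 32.7, 25.1 and 2.65 CPM in shCTR 1, 2, 5 and 6. It measured 0.021, 0.21 and 0.19 CPM in shCBX8 1, 2 and 6, from 1, 7 and 9 counts. All shCBX8 libraries lay below all others, and shCTR 6 stood about as low as the shCBX7 libraries. Its log2 fold change was -7.21 (SE 1.12), between -7.58 and -6.49 over 18 other settings. Agt stayed low in shCBX8 2, the library that had control levels of Ednra.

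Ace and Agtr1a followed the split of Ednra instead. Ace (ENSMUSG00000020681, chromosome 11, 105967945 to 105989964), which turns angiotensin I into angiotensin II and also degrades kinins, measured 172, 176, 165 and 210.1 CPM in shCTR 1, 2, 5 and 6, whereas shCBX8 1, 2 and 6 had 13.2, 173 and 26.5 CPM. The shCBX8 group thus held 2 libraries far below control and 1 at the control level. Over all 3 libraries the log2 fold change was -1.35 (SE 0.82), or -3.19 without shCBX8 2. Ace shares 295 exon bases with the antisense gene Gm11651, and its total was 60672 counts by strand and 53473 unstranded. Agtr1a (ENSMUSG00000049115, chromosome 13, 30336441 to 30382867) was rare, at 0.83, 2.35, 0.50 and 1.73 CPM in shCTR, and it had 0.063, 0.96 and 0.065 CPM in shCBX8 1, 2 and 6. Replicates 1 and 6 had 3 counts each, and replicate 2 had 32. The log2 fold change of -1.94 (SE 0.96) became -4.33 without shCBX8 2, and reads that match both AT1 paralogs are counted uncertainly.

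The split of Ednra, Ace and Agtr1a ran with the fibroblast markers, among other measures. Within shCBX8, replicate 2 had 2938 CPM of these markers against 237 and 161 CPM in replicates 1 and 6, and it had the highest level of all 3 genes. Replicate 2 also had the most of these markers in shCTR, 28057 CPM, and in shCBX7, 17658 CPM. Ednra was highest in replicate 2 of every group, whereas Ace was highest in shCTR 6 among controls and Agtr1a in shCBX7 5 of its group. In the same order of replicates 2, 1 and 6, ensheathing cell markers summed to 72.7, 28.2 and 30.1 CPM and olfactory neuron markers to 105, 42.4 and 43.0 CPM. The share of stranded counts on the forward strand was 7.75, 3.57 and 3.83%. Smooth muscle and horizontal basal markers were lowest in replicate 2. Col1a1, a defining marker, averaged 679.8 CPM in shCTR and 29.2 CPM in shCBX8. All 8 markers were detected in every group, and 2 of 8 passed the test as lower in shCBX8. Agt differed between libraries with like levels of these markers: shCTR 6 and shCBX7 1 and 5 had 5223 to 6484 CPM of fibroblast markers, close to the 6065 CPM of shCTR 5, but 2.53 to 3.95 CPM of Agt against 25.1. The part of fibroblast number, or of the other measures, in these values was not tested.

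**Figure D2:**
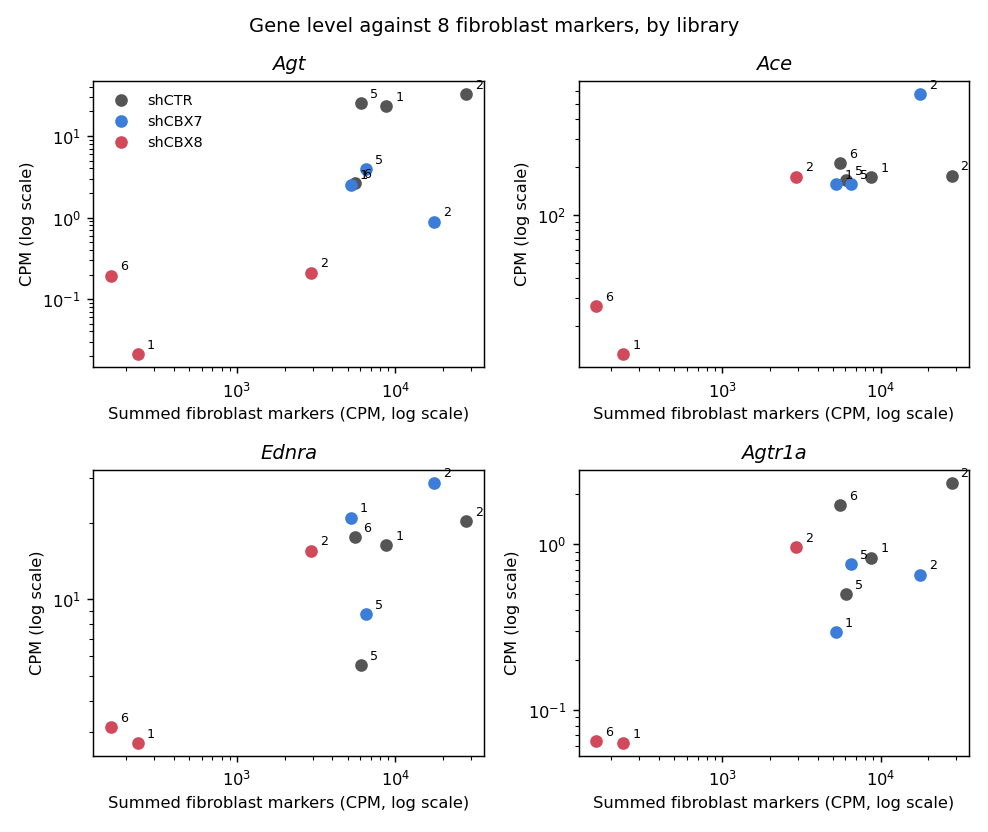
Level of Agt, Ace, Ednra and Agtr1a in CPM against the summed CPM of 8 fibroblast markers, both on log axes, with 1 point per library and its replicate number. For Ace, Ednra and Agtr1a the lowest points are shCBX8 1 and 6 and shCBX8 2 lies near the other groups, while Agt is low in all 3 shCBX8 libraries.

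Between shCBX8 and control, 4 of the 9 genes had groups that did not overlap (Edn1, Edn2 and Ece1 higher, Agt lower). Of all 16669 genes tested, 42.4% did not overlap (22.9% higher, 19.5% lower), and 32.9% passed an edgeR adjusted p of 0.05 (17.0% higher, 15.9% lower). Since this comparison chose the set, nothing is read from the count. The median log2 fold change was -0.56 over the 9 genes and -0.01 over all genes. The comparison with shCBX7 shares the shCBX8 libraries. There 6 of 9 did not overlap, 4 higher and 2 lower, against 48.2% of all genes (25.6% higher, 22.6% lower). These shCBX8 libraries also chose the set, and nothing is read from the count. The log2 differences there were 2.93 for Edn1, 5.53 for Edn2, 2.76 for Edn3, 0.68 for Ece1, -1.45 for Ednra, -0.77 for Ednrb, -4.13 for Agt, -2.06 for Ace and -0.70 for Agtr1a. Several of these rest on 1 library. Without shCBX8 2 Ednra was at -2.74, Ace at -3.91 and Agtr1a at -3.10, and without shCBX8 1 Agtr1a was at -0.18. Without shCBX7 2 Ace was at -1.17, and without shCBX7 5 Edn2 was at 12.4, a value that depends on the prior count.

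The comparison of shCBX7 with shCTR shares the 4 control libraries against which Edn2 and Agt were chosen. The values of these 2 genes are therefore a description here too, and the other 7 were tested. None of the 7 passed edgeR's quasi-likelihood test, as none of the 16669 genes did (0%). At an unadjusted p under 0.05 stood 1 of the 7, Edn3, against 5.85% of all genes. DESeq2 called 91 genes, none of the 7 among them, and gave Ace no adjusted p. In no gene of the set did all 3 shCBX7 libraries lie on 1 side of all 4 controls, against 5.42% of all genes.

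Agt in the 3 shCBX7 libraries measured 2.53, 0.89 and 3.95 CPM, below 3 of the 4 controls but around the 2.65 CPM of shCTR 6. The log2 fold change was -3.08 (SE 0.87). Edn3 was at -1.84 (SE 0.73, edgeR adjusted p = 0.753), and at -0.57 without shCTR 1 and 2, the controls with the most opposite-strand reads at this gene. Agtr1a was at -1.24 (SE 0.92, edgeR adjusted p = 0.929), with 0.29, 0.65 and 0.76 CPM.

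The other genes were near 0 or were set by 1 library in shCBX7. Edn2 had 0, 0 and 53 counts in shCBX7 1, 2 and 5. The zeros allow up to 0.063 and 0.089 CPM (3 counts, counting error only), and replicate 5 had 1.26 CPM, above every control. Its log2 fold change was 0.59 (SE 1.31) and turned to -6.32 without shCBX7 5, a value that depends on the prior count since both remaining libraries are at 0. Ace measured 155, 575 and 155 CPM, and its log2 fold change of 0.71 (SE 0.78, edgeR adjusted p = 0.943) turned to -0.20 without shCBX7 2. That library also had the most fibroblast marker RNA of its group, 17658 CPM, and the highest Ednra and Ednrb. Ednra was at 0.38 (SE 0.68), Ednrb at 0.20 (SE 0.41), Edn1 at -0.22 (SE 0.73) and Ece1 at -0.04 (SE 0.18), with edgeR adjusted p from 0.965 to 0.993. The SE of Ece1 was the smallest of the 9, and that of Edn2 the largest.

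**Figure D3:**
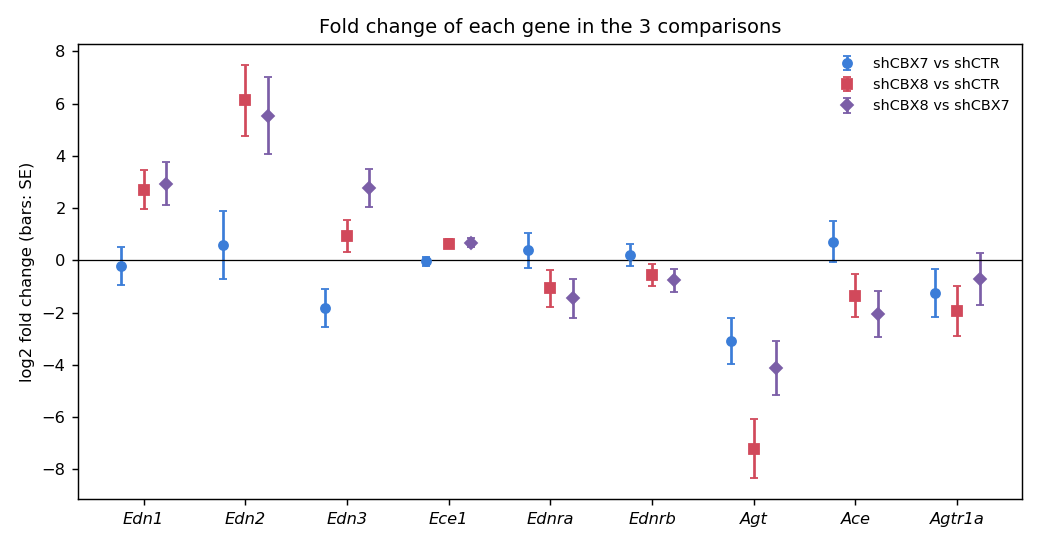
Log2 fold change of each gene in the 3 comparisons, with bars of 1 SE from the edgeR fit over 10 libraries. In shCBX7 against shCTR Agt is the lowest at -3.08. The comparisons share libraries and are not independent.

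Per length, the order of the 9 genes in control ran from the converting enzymes to the rare peptides. Mean RPKM in shCTR was 34.2 for Ace, 29.3 for Ece1, 11.1 for Agt, 2.73 for Ednra, 0.70 for Edn1, 0.49 for Agtr1a, 0.41 for Ednrb, 0.19 for Edn2 and 0.081 for Edn3. Of these neighbours only Ece1 and Agt did not overlap between libraries. The order was the same over the longest transcript. In shCBX7 it began with Ace at 55.8 and Ece1 at 28.6, and Ednra at 3.55 stood above Agt at 1.30.

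In shCBX8, Ece1 stood first at 45.8 RPKM, without overlap with the next gene. Edn2 at 13.5 and Ace at 13.4 followed by mean, and these swapped places over the longest transcript. Per library they were apart: Edn2 had 12.5, 5.29 and 22.8 RPKM and Ace 2.501, 32.8 and 5.01 RPKM in replicates 1, 2 and 6. Edn1 had 4.65, Ednra 1.30, Ednrb 0.28, Edn3 0.15 and Agtr1a 0.13 RPKM. Agt, the third by mean in control, had the lowest mean, 0.075 RPKM, but overlapped Agtr1a, and both rest on few counts.

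**Figure D4:**
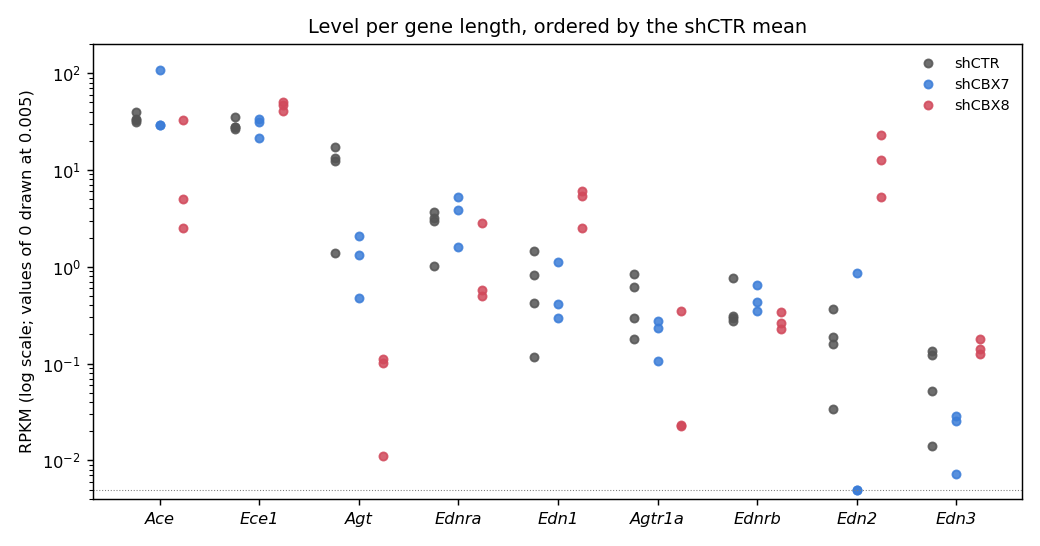
Level per exon length (RPKM, log axis) of the 9 genes, ordered by their mean in shCTR, with 1 point per library. Values of 0, which occur for Edn2 in shCBX7 1 and 2, are drawn at 0.005 on the dotted line. Edn2 is next to last in shCTR and about level with Ace by mean in shCBX8, where its points lie above those of Ace in replicates 1 and 6 and below it in replicate 2. Agt has the lowest mean in shCBX8.

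The genes whose pattern was most like that of Edn2 were sought over the 10 libraries, among 12814 genes, by Pearson's r of log2 CPM. They were Slc44a3, a choline transporter-like gene (r = 0.995), 2810459M11Rik (0.992), Mansc1 (0.991) and Dusp1, which encodes a phosphatase of MAP kinases (0.989). After removal of group means r was 0.992, 0.964, 0.956 and 0.946. Edn2 had 0, 0 and 53 counts in shCBX7, and its log2 CPM at 0 counts depends on the prior count. The SD of its log2 CPM was 2.63 in shCBX7, against 1.03 in shCTR and 1.06 in shCBX8, so that group held the widest spread. Dusp1 averaged 18.7 CPM in shCTR and 129 CPM in shCBX8. Among the other genes of the set, r with Edn2 was highest for Edn1 (0.917) and lowest for Ednra (-0.826). The points share the 3 groups and their libraries, and these values are a description.

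The genes most like Agt were Atg16l2, related to an autophagy gene (r = 0.970), Tmem39b (0.968), Khdrbs2, an RNA-binding protein gene (0.963), and Ppp1r12a, a regulatory subunit of myosin phosphatase (0.962). Their span was much smaller than that of Agt. Ppp1r12a averaged 142 CPM in shCTR, 126 in shCBX7 and 103 in shCBX8. After removal of group means r fell to between 0.739 and 0.902.

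Outside the 9 genes, 86 further genes of these systems were listed, with earlier results of these data known, and 74 passed the filter. In shCBX8 against shCTR 13 rose and 18 fell (31 of 74, 41.9%, against 32.9% of all genes), and the count was 18 without shCTR 1 and 2, 17 without shCBX8 1 and 19 without shCBX8 6. In shCBX7 against shCTR 0 of 74 passed by edgeR or by DESeq2, and 5 had an unadjusted p under 0.05. In shCBX8 against shCBX7 28 of 74 passed (37.8%, against 28.6% of all genes), and 12 without shCBX8 6, 13 without shCBX8 1 and 17 without shCBX7 1 or 2. The p-values quoted for these genes are edgeR's, adjusted over all 16669 genes.

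Among 20 other enzymes and receptors of both systems 15 were tested. In shCBX8 2 rose and 3 fell (33.3%, against 32.9% of all genes). The median log2 fold change was -0.07, against -0.01 over all genes. Mme, which encodes neprilysin, a protease that degrades endothelins and natriuretic peptides, fell by 3.12 on the log2 scale (SE 0.73, adjusted p = 0.0131), with 137 to 1162 CPM in shCTR and 45.3 to 72.1 CPM in shCBX8. That call ended without shCBX8 1 (adjusted p = 0.0596) and without shCBX8 6 (0.0598). Lnpep, the angiotensin IV-binding aminopeptidase, fell by 0.52 (SE 0.11, adjusted p = 0.00863) and lost its call under library size scaling (-0.33, adjusted p = 0.0764). Nln, a neurolysin that cuts small peptides, rose by 0.81 (SE 0.23, adjusted p = 0.0271). Its call ended without shCTR 1 and 2 (adjusted p = 0.131), without shCTR 1 alone, and without shCBX8 1 or 6. In shCBX8 against shCBX7 1 of the 15 passed (6.67%, against 28.6% of all genes). Mme, Lnpep and Nln kept their direction there but did not pass (adjusted p = 0.0715, 0.171 and 0.143). Of this list 5 genes did not pass the filter, and they were named after their values were seen. Ren1, which encodes renin, had at most 0.35 CPM in any library, the chymase gene Cma1 0.25, Kel 0.59, Mas1 0.11 and Mrgprd 0.079.

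Of 26 genes of Gq and G12 signalling, the route downstream of both receptors, 3 rose and 7 fell in shCBX8, with a median of -0.35. This was 38.5% called, against 32.9% of all genes. Plcb1, a phospholipase C that Gq activates, fell by 2.81 (SE 0.33, adjusted p = 0.00156), and its mean was 35.8 ± 10.4 CPM (SD, n = 4) in shCTR and 5.12 ± 1.81 CPM (n = 3) in shCBX8. Gna12, a G12 alpha subunit, fell by 1.65 (SE 0.21, adjusted p = 0.00169). Gnaq, the Gq alpha subunit itself, fell by 0.77 (SE 0.12, adjusted p = 0.00334), from 81.6 to 47.7 CPM. Itpr3, a calcium release channel opened by the product of phospholipase C, rose by 0.86 (SE 0.18, adjusted p = 0.00803), and its call ended without shCTR 1 and 2 (adjusted p = 0.0543). All 4 differed in the same direction between shCBX8 and shCBX7 and passed there too, with adjusted p from 0.00267 to 0.0172. Thus 10 genes of this list were called in shCBX8, and 16 were not.

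Of 30 genes of other vasoactive peptide and nitric oxide systems 25 were tested. In shCBX8 3 rose and 7 fell (40%, against 32.9% of all genes), with a median of -0.62. Kng1 and Kng2, which encode kininogens, the precursors of bradykinin, rose by 4.29 (SE 0.50, adjusted p = 0.00156) and 2.71 (SE 0.47, adjusted p = 0.00453). They are near-identical paralogs between which reads can be split, so each value is uncertain. Kng1 measured 0.69 to 1.98 CPM in shCTR and 10.2 to 30.3 CPM in shCBX8. Ramp2, a partner of the adrenomedullin receptor, fell by 3.89 (SE 0.70, adjusted p = 0.00522), from 5.90 to 12.3 CPM to 0.17 to 1.38 CPM. Npr1, a natriuretic peptide receptor, fell by 2.36 (SE 0.51, adjusted p = 0.00984), and its call ended without shCTR 1 and 2 (adjusted p = 0.0507).

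The mineralocorticoid arm, which lies downstream of angiotensin in the kidney, had 8 of 10 genes tested. In shCBX8 5 rose and 1 fell (75%, against 32.9% of all genes), with a median of 1.19. Scnn1b and Scnn1g, subunits of the epithelial sodium channel, rose by 3.63 (SE 0.60, adjusted p = 0.00390) and 3.00 (SE 0.64, adjusted p = 0.00962), and the call of Scnn1g ended without shCTR 1 and 2 (adjusted p = 0.0619). Scnn1b measured 0.25 to 0.71 CPM in shCTR and 3.01 to 7.57 CPM in shCBX8. Nedd4l, a ubiquitin ligase that removes this channel from the membrane, also rose, by 1.05 (SE 0.20, adjusted p = 0.00618). Sgk1, an aldosterone-induced kinase that restrains NEDD4L, was the gene that fell, by 1.51 (SE 0.28, adjusted p = 0.00554), with means of 86.4 ± 27.3 CPM (SD, n = 4) in shCTR and 30.3 ± 3.81 CPM (n = 3) in shCBX8. Cyp11b2, the aldosterone synthase gene, and Hsd11b2 did not pass the filter, with at most 0.058 and 0.38 CPM in any library, and they were named after their values were seen. Summed horizontal basal markers were higher and summed fibroblast markers lower in the same shCBX8 libraries, and their part in these lists was not tested.

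**Figure D5:**
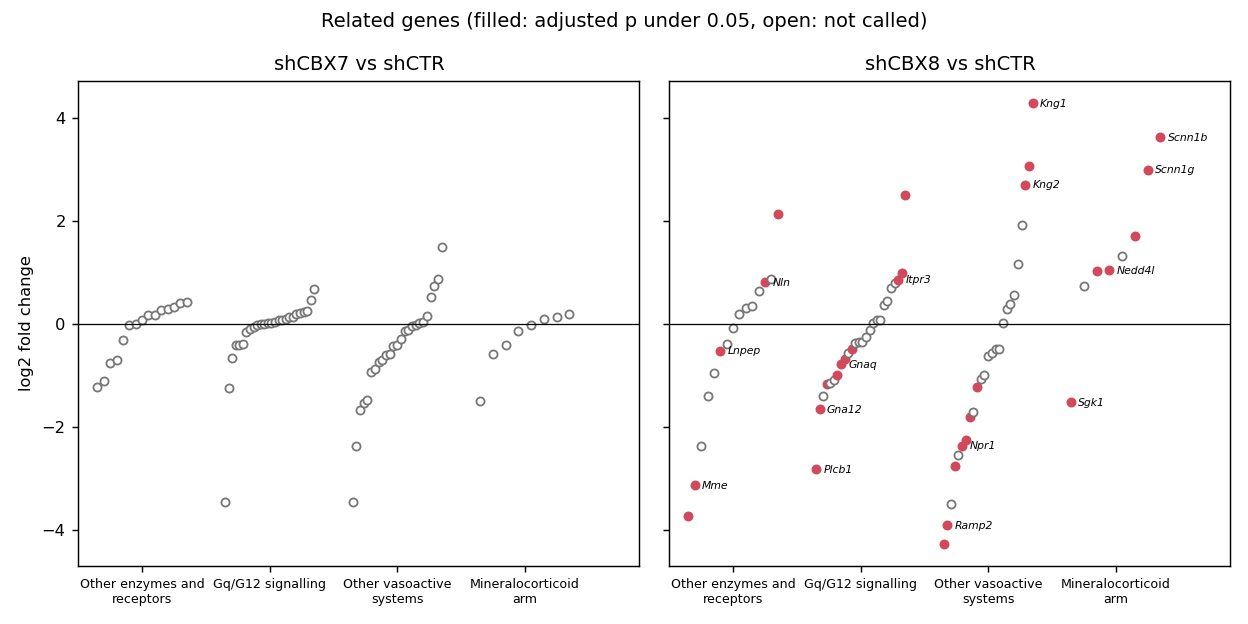
Log2 fold change of 74 related genes in 4 lists, in shCBX7 against shCTR (left) and shCBX8 against shCTR (right). Each point is a gene, filled where the edgeR adjusted p is under 0.05. No point is filled for shCBX7, and 31 are filled for shCBX8, 13 above and 18 below 0.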

How the data were processed

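The deposited values are raw read counts per Ensembl gene in STAR's layout (unstranded, forward and reverse strand), per the file headers and values. Per the submitters' processing notes the tools were bcl2fastq 2.17, Trim Galore 0.4.3 and STAR 2.5.0a, with mm10; the submitters' gene annotation is not stated in the labels or file headers. Libraries were stranded total RNA from 500 ng, and reverse-strand counts were used, as forward counts held 3.42 to 10.4% of stranded counts. Rows that name no gene (unmapped 5.03 to 21.7% of reads, multimapping 15.4 to 22.1%, no feature 12.5 to 23.6%, ambiguous 0.29 to 0.64%) were left out. GENCODE M21 matched 40217 of 41091 identifiers. Libraries of a group differed beyond sampling noise in all 12 pairs.

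From the counts, edgeR 4.0.16 (R 4.3.3) was fitted over 10 libraries: filterByExpr with a minimum count of 10 left 16669 genes, TMM scaling, group as the only factor, the quasi-likelihood test, and Benjamini-Hochberg adjustment over all genes at 0.05 (biological coefficient of variation 0.375). CPM is relative to the scaled library size, RPKM per kilobase of exon union, and each SE is the absolute log2 fold change over the square root of F. The fit was also run on simulated counts with the same spread for every gene, which does not test it on libraries like these. Alternatives were RLE and library size scaling, no filter, DESeq2 1.42.0, unstranded counts, only the groups compared, a replicate block, each library left out, and shCTR 1 and 2 left out.

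The 9 genes, the lists and the settings were chosen with earlier results of these data known. Named beside them are Cbx7 and Cbx8, up to 4 genes per list with the smallest p in shCBX8 against shCTR, the 4 protein-coding genes (mean of at least 1 CPM) most like Edn2 and Agt, and defining markers; an item these rules take is not reported here. Marker lists also covered ensheathing, globose basal, olfactory neuron, sustentacular and immune cells: their summed CPM in shCTR, shCBX7 and shCBX8 was 83.4 to 153, 124 to 160 and 28.2 to 72.7 for ensheathing cells, 2.15 to 6.94, 1.54 to 6.32 and 7.15 to 15.2 for globose basal cells, 108 to 149, 124 to 214 and 42.4 to 105 for olfactory neurons, 4.46 to 79.3, 0.62 to 105 and 88.4 to 411 for sustentacular cells, and 3.66 to 5.94, 2.72 to 7.39 and 6.76 to 13.3 for immune cells.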

Additional observations from a re-analysis of the deposited data

Results flagged for a closer look

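Ece1 in shCTR had 1 library far above the other 3: shCTR 6 measured 188 CPM, against 142 to 146 CPM in shCTR 1, 2 and 5. Ednrb in shCTR likewise had 3.26 CPM in shCTR 2, against 1.18 to 1.32 CPM in the others. In both cases the gap to the nearest library exceeded Dixon's 95% critical value for 4 libraries. The check was made for the 9 genes in shCTR only, and chance flags about 1 in 20 groups.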

How the results depend on the processing

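In shCBX8 against shCTR each of the 9 genes kept its direction under all 18 other settings. In shCBX7 against shCTR, 13 values near 0 or set by 1 library changed sign: Ece1 under library size scaling (0.00057), without the filter (0.023), with unstranded counts (0.046) and with the replicate block (0.016), and between -0.15 and 0.15 with 1 library left out; Edn1 with the block (0.25) and between -0.99 and 0.40 with 1 library left out; Edn2 with the block (-0.48) and between -6.32 and 1.20 with 1 library left out; and, with 1 library left out, Ednrb between -0.053 and 0.68 and Ace between -0.20 and 1.03, both negative only without shCBX7 2. The cause was not tested. Genes called in shCBX7 against shCTR numbered 91 with DESeq2 (2 higher, 89 lower) and 0 to 41 with 1 library left out, 41 without shCTR 6. In shCBX8 against shCTR the count of 5478 became 2409 without shCTR 1 and 2 and 2261 to 6193 with 1 library left out, and that of related genes 18 and 17 to 39; both were lowest without shCBX8 1, with 2279 and 19 without shCBX8 6. In shCBX8 against shCBX7 the ranges were 1784 to 6005 and 12 to 32, lowest without shCBX8 6, with 1848 and 13 without shCBX8 1, 2730 and 17 without shCBX7 1, and 2900 and 17 without shCBX7 2. Library size scaling moved the split in shCBX8 against shCTR from 2827 higher and 2651 lower to 3765 and 1839, with the median of all genes at 0.17, and for related genes from 13 and 18 to 17 and 15. Same-numbered replicates were not taken as pairs: the correlation of their deviations from group means was -0.078 to 0.69 and over 0.1 in 6 of 8 pairs. Between libraries of different groups and different numbers it ran from -0.51 to 0.47. With the replicate block 6036 genes and 42 related genes were called in shCBX8 against shCTR, 4661 against shCBX7, and 0 in shCBX7 against shCTR. The block put Ace at -2.34 (SE 0.67), Ednra at -1.69 (SE 0.48) and Agtr1a at -2.50 (SE 0.85) in shCBX8 against shCTR, and Edn2 at 7.80 against shCBX7. Without the block these were -1.35 (SE 0.82), -1.07 (SE 0.70), -1.94 (SE 0.96) and 5.53, so their size depends on the pairing. Ednra in shCTR was 4.12 RPKM over its longest transcript. Values from 3 counts or fewer (Agtr1a in shCBX8 1 and 6, Agt in shCBX8 1, Edn2 in shCTR 2 and shCBX7 1 and 2, Edn3 in shCTR 6 and shCBX7 2) are too shallow to order.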
